A study of Arabidopsis thaliana with 21 samples.

Results

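Cytochrome P450 and UDP-glycosyltransferase (UGT) genes were described over 7 groups of Arabidopsis thaliana Col-0 roots measured on ATH1 arrays, 3 arrays per group. Members were all probe sets annotated to 1 gene whose symbol is CYP or UGT followed by a number, a letter and a number, at any signal, except 2 probe sets not used here. This gave 67 probe sets, 22 of P450 genes and 45 of UGT genes, among 22810 on the array, of which 13513 carry the name of 1 gene. The 22 P450 members are a narrow part of that family: 18 are CYP71B genes, and CYP51G2, CYP78A9, CYP79A2 and CYP84A4 are the others. Values are MAS5 signals, a linear brightness per probe set, so a level is compared between groups for 1 probe set, and signals of different probe sets set no order of expression.

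ATGE_9 and ATGE_3 were roots of plants grown in soil in continuous light at 23 °C and 65% humidity, and the labels of ATGE_3 record soil left in the sampled tissue. ATGE_93 came from 1x MS medium with 1% sucrose, in long days at 22 °C. ATGE_99 and ATGE_95 came from 0.5x GM medium with 5% sucrose, and ATGE_98 and ATGE_94 from 0.5x GM medium alone, all 4 in continuous light at 20 °C. Most plants of ATGE_95 and ATGE_94 were likened in the labels to 7-day-old reference plants. ATGE_9, ATGE_99 and ATGE_98 are called the later harvest here, and ATGE_3, ATGE_95 and ATGE_94 the earlier one. No likened age is recorded for the other groups, so soil and plate plants of 1 harvest may differ in stage. Harvest stage cannot be told apart from the set of plants sampled, and soil against plate also differs in temperature. No label says that the 3 arrays of a group came from separate cultures, so p-values measure the spread between arrays, which may be technical.

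Plant cytochrome P450s are membrane-bound heme enzymes that take electrons from a P450 reductase and use molecular oxygen to oxidise small molecules, among them hormones, sterols, lignin precursors and defence compounds. UGTs transfer a sugar from a UDP-sugar to hormones, phenolics or foreign chemicals, which makes the product more soluble and often inactive or ready for storage in the vacuole. The 2 families often act in sequence, a P450 adding the hydroxyl group that a UGT then glycosylates. In roots, UGTs are known for conjugating monolignols, flavonols, auxin and cytokinins.

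The arrays were alike in scale: the median signal lay between 38.7 and 45.2, and arrays of 1 group correlated at r = 0.949 to 0.967 across probe sets on the log2 scale. The 40th percentile of an array, between 22.9 and 28.0, served as its floor, and a group with all 3 arrays under the floor is called dim below. A probe set was tested when it exceeded the floor on at least 3 arrays, and the number of arrays limits the precision. Of the root markers, 3 of 18 had a named probe set, the root-hair genes EXPA7, EXPA18 and SCN1, and their summed signal was 447 to 467 in ATGE_9, 463 to 474 in ATGE_3 and 492 to 1264 on plates. Of the green-tissue markers 2 of 22 were named, LHCB4.1 and RCA, and their sum was 79.3 to 84.8 in ATGE_9, 83.2 to 88.4 in ATGE_3 and 234 to 548 on plates. The other markers were not analysed here. The GAPDH control's 3' to 5' ratio averaged 1.17 ± 0.04 in ATGE_9 and 1.385 ± 0.063 in ATGE_3, and between 0.977 and 1.245 in the plate groups (SD, n = 3 each). The actin control's ratio averaged 1.76 ± 0.14 in ATGE_9 and 2.38 ± 0.10 in ATGE_3, and between 1.38 and 2.81 in the plate groups. Both marker sums were lowest in soil, where most members were lowest too. EXPA7 and EXPA18 were lowest there, while SCN1 averaged 395 in ATGE_9 and 362 in ATGE_3, within its 320.3 to 407.5 in the plate groups. The part of these markers in the results was not tested. In bulk roots, fewer cells of a type and less RNA per cell cannot be told apart.

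Not all members could be measured: 10 of 22 P450s (45.5%) were tested, against 28 of 45 UGTs (62.2%) and 67.2% of all probe sets. Of the P450s 5 exceeded the floor on all 21 arrays and 12 on none. Of the UGTs 15 did so on all 21 and another 15 on none. P450 probe sets with strong signal were those of CYP71B6 (AT2G24180), which acts on indole-3-acetonitrile, with a median of 395 over 21 arrays, CYP71B37 (AT3G26330), CYP71B23 (AT3G26210), CYP71B26 (AT3G26290) and CYP71B34 (AT3G26300). UGT probe sets with strong signal were those of UGT72E2 (AT5G66690), which glucosylates the monolignols coniferyl and sinapyl alcohol (median 807), and its relative UGT72E1 (AT3G50740), which acts on the corresponding aldehydes (median 487). Others were the auxin-conjugating UGT74D1 (AT2G31750), UGT71C1 (AT2G29750) and UGT85A2 (AT1G22360). Among members above the floor on no array were CYP79A2, which starts benzylglucosinolate synthesis, the linalool oxidase CYP71B31, the abscisic acid glucosyltransferase UGT71B6, the auxin glucosyltransferase UGT84B1 and the jasmonate-related UGT76E1. Levels differed somewhere among the 7 groups for 9 of 10 tested P450s and 27 of 28 tested UGTs, where 93.2% of all tested probe sets passed, a share like the members' own.

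The largest differences in both families lay between soil and plates. In ATGE_3 against ATGE_94, 23 of 28 tested UGTs were lower and 1 was higher, where 30.4% of all tested probe sets were lower and 35.1% higher. In ATGE_9 against ATGE_98, 21 UGTs were lower and 3 higher, against 32.9% and 33.9% of all. The median UGT difference was -1.34 on the log2 scale at the earlier harvest and -1.27 at the later one, with 0.05 and 0.0006 as the medians of all tested probe sets. With dim groups set at their bound it was -0.82 over 27 UGTs and -1.04 over 24, since probe sets dim in both groups or with a bound under 1 have no fold. Of the 10 tested P450s, 6 were lower and 2 higher (1 higher after quantile normalization) in ATGE_3 against ATGE_94, and 7 lower and 1 higher in ATGE_9 against ATGE_98, with medians of -0.73 and -1.05. The higher ones were CYP51G2 (ATGE_3 alone) and CYP78A9, which were tested because of a soil group in which they are above the floor, so these counts are partly fixed by how they entered. Members dim in both soil groups were likewise tested because of plate groups, so the counts of lower members are partly fixed too. All calls here are from limma at an adjusted p below 0.05.

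**Figure D1:**
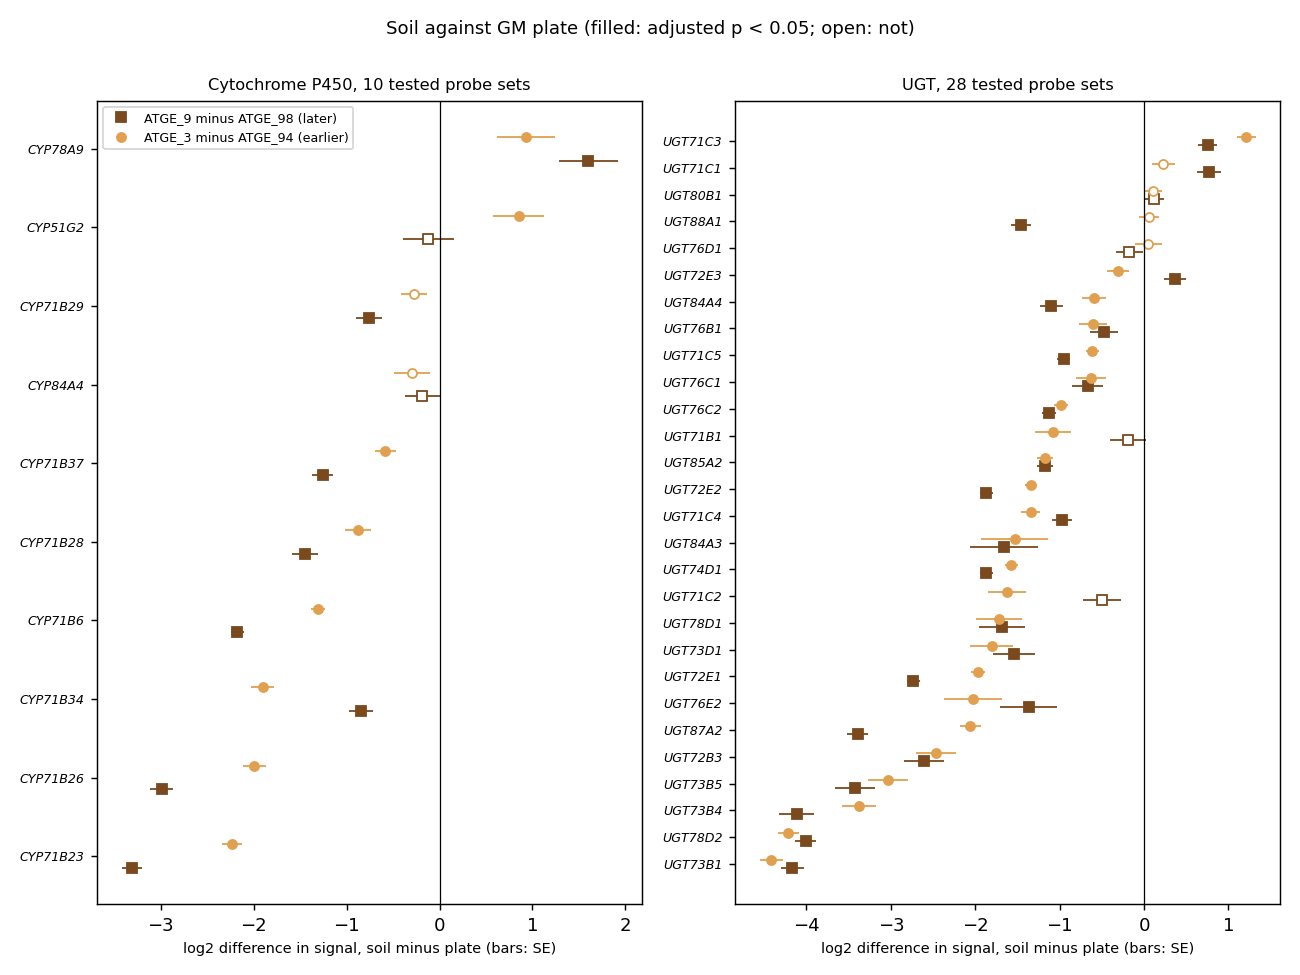
Log2 difference in signal, soil minus GM plate, for each tested P450 (left) and UGT (right), with bars of 1 SE. Squares are ATGE_9 minus ATGE_98 and circles ATGE_3 minus ATGE_94, and filled symbols passed an adjusted p of 0.05. Most points lie left of 0, and the UGTs reach -4.42 in the fitted values, where dim soil groups make the position a fit and not a bound.

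Of the UGTs, 20 were lower in both soil comparisons, as were 23.2% of all tested probe sets, UGT71C3 was higher in both, as were 24.9% of all, and UGT72E3 was lower at the earlier harvest and higher at the later one. Of the P450s 6 were lower in both, all of them CYP71B genes, and CYP78A9 was higher in both. All 6 soil arrays lay below all 15 plate arrays for 18 of 28 UGTs (64.3%) and 5 of 10 P450s, where the same held for 12.1% of all tested probe sets. The opposite, all soil arrays above all plate arrays, held for 0 members and for 14.9% of all tested probe sets. Among those below, UGT73B1, UGT73B4, UGT73B5, UGT78D2 and CYP71B26 exceeded the floor on every plate array and on no soil array. UGT72B3, UGT73D1, UGT76C1, UGT78D1 and UGT84A3 exceeded it on some plate arrays and on no soil array. All of these were tested because of plate groups, so their place below is partly fixed by how they entered. The counts of members below are partly fixed in the same way. At least 2-fold falls in the fitted values were seen in 17 UGTs at each harvest, and in 4 P450s at the earlier and 5 at the later one, where 8.95% of all tested probe sets passed this at the earlier harvest and 11.3% at the later one. The soil group was dim for 10 of the 17 UGTs at each harvest, and for 2 of the 4 and 1 of the 5 P450s. Summed over all 45 members the UGT signal was 1765 to 1971 in ATGE_9, 1871 to 2223 in ATGE_3 and 4518 to 5234 on plates, and the 22 P450s summed to 471 to 494 in ATGE_9, 509 to 588 in ATGE_3 and 1039 to 1621 on plates. The sums of both soil groups lay wholly under those of every plate group.

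The tested flavonoid UGTs were lower in soil than on plates. UGT78D2 (AT5G17050), the flavonoid 3-O-glucosyltransferase, was under the floor in soil and bright on plates. In ATGE_9 its signals were 23.7, 14.99 and 14.3, against 258, 279 and 295 in ATGE_98. In ATGE_3 they were 22.5, 20.2 and 18.1, against 389.9, 353 and 381 in ATGE_94. No soil array came near a plate array, and the difference was at least 11.01-fold in the later pair (log2 -4.01 ± 0.13, adjusted p = 5.12e-18, limma) and at least 14.2-fold in the earlier one (log2 -4.21 ± 0.13, adjusted p = 2.74e-18, limma). Folds are given as a minimum where the soil group is dim, since its own value is then a bound. UGT78D1 (AT1G30530), the flavonol 3-O-rhamnosyltransferase, was dim in both soil groups and near the floor on plates, and was lower in soil by at least 1.32-fold and at least 1.39-fold in the same order. UGT78D3, the flavonol arabinosyltransferase next in this group, exceeded the floor on no array.

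The monolignol group split. Of the core phenylpropanoid and lignin list, 7 probe sets were tested, 6 of them members and 1 under the symbol GT72B1, which the naming rule leaves out. In ATGE_3 against ATGE_94, 0 of the 7 were higher and 6 lower, with a median of -0.80. In ATGE_9 against ATGE_98, 1 was higher and 5 lower, with a median of -1.31. Of all tested probe sets, 35.1% were higher and 30.4% lower in the earlier pair, and 33.9% and 32.9% in the later one. UGT72E1 led. In ATGE_9 its signals were 82.01, 74.2 and 89.2, against 519, 551 and 556 in ATGE_98. In ATGE_3 they were 149, 140.0 and 139.7, against 610.0, 528 and 544 in ATGE_94. The soil values were the lower ones without overlap, at log2 -2.73 ± 0.08 in the later pair and -1.97 ± 0.08 in the earlier one (adjusted p = 1.5e-18 and 7.85e-16, limma). UGT72E2 was lower in soil by 3.65-fold in the later pair and 2.53-fold in the earlier one. UGT72E3 (AT5G26310), which favours sinapyl alcohol, did not follow its relatives. Its signals were 74.4, 72.2 and 58.8 in ATGE_9, against 58.5, 48.4 and 51.6 in ATGE_98, and 41.97, 56.1 and 58.4 in ATGE_3, against 60.5, 64.3 and 66.5 in ATGE_94. The soil values were higher in the later pair (log2 0.37 ± 0.13, adjusted p = 0.0157, limma) and lower in the earlier one (log2 -0.30 ± 0.13, adjusted p = 0.0455, limma). The 4 groups were free of overlap within each pair, though 58.8 and 58.5 were close. The later call was lost without ATGE_9 replicate 1, ATGE_9 replicate 2 or ATGE_98 replicate 2 (adjusted p = 0.0719, 0.0594 and 0.0682, limma). The earlier call was lost without any of 8 single arrays, most of all ATGE_3 replicate 1 (0.313), ATGE_94 replicate 3 (0.114) and ATGE_94 replicate 2 (0.0899), and in a fit of ATGE_3 and ATGE_94 alone (0.0796).

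UGT84A4 (AT4G15500), which makes glucose esters of hydroxycinnamic acids, was lower in soil, at log2 -1.10 in the later pair and -0.59 in the earlier one. UGT84A3 (AT4G15490), with the same kind of reaction, was dim in both soil groups and in ATGE_98 and ATGE_94, so its calls carry no fold. CYP84A4 (AT5G04330), the P450 of the phenylpropanoid-derived arabidopyrones, passed in neither pair (log2 -0.19 and -0.30).

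UGT73B genes, known for conjugating foreign compounds and for responding to pathogens and oxidative stress, were lower in soil as well. UGT73B1 (AT4G34138) was dim in both soil groups. In ATGE_9 its signals were 21.9, 20.8 and 23.4, against 397, 404 and 388 in ATGE_98. In ATGE_3 they were 10.7, 19.4 and 18.1, against 339, 321 and 338 in ATGE_94. Soil was lower by at least 15.8-fold in the later pair and at least 12.6-fold in the earlier one (adjusted p = 8.69e-18 and 3.95e-18, limma).

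The neighbours UGT73B4 (AT2G15490) and UGT73B5 (AT2G15480) were lower too. In ATGE_9 the signals of UGT73B4 were 7.09, 6.20 and 5.76, against 114, 105 and 109 in ATGE_98. In ATGE_3 they were 6.32, 15.6 and 13.98, against 129, 109 and 111 in ATGE_94. The soil arrays were all under the floor, which makes the difference at least 4.36-fold and at least 4.40-fold for UGT73B4, and at least 7.65-fold and at least 4.94-fold for UGT73B5, later pair before earlier pair. Of the xenobiotic list, 5 probe sets were tested, with GT72B1 again among them. In ATGE_3 against ATGE_94, 1 was higher and 3 lower, and in ATGE_9 against ATGE_98, 2 were higher and 3 lower, beside 35.1% higher and 30.4% lower of all tested probe sets in the earlier pair and 33.9% and 32.9% in the later one.

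Several UGTs known for conjugating hormones and related signals were lower in both soil pairs. UGT74D1, which glucosylates auxin and its oxidised form, gave 84.02, 83.6 and 82.3 in ATGE_9, against 324, 289 and 302 in ATGE_98, and 141, 122 and 121 in ATGE_3, against 391, 388 and 365 in ATGE_94. The groups did not overlap and differed by 3.65-fold and 2.98-fold. The cytokinin N-glucosyltransferases were lower too, UGT76C2 (AT5G05860) at log2 -1.12 in the later pair and -0.99 in the earlier one, and UGT76C1 (AT5G05870), dim in both soil groups, by at least 1.31-fold and at least 1.16-fold. UGT71C5 (AT1G07240), which forms the glucose ester of abscisic acid, was lower, at log2 -0.95 and -0.61. UGT76B1 (AT3G11340), which glucosylates salicylate-related defence signals, was lower, at log2 -0.47 and -0.60, a call lost in the later pair without ATGE_9 replicate 3 or ATGE_98 replicate 1 (adjusted p = 0.127 and 0.0882, limma). UGT76D1 (AT2G26480), which acts on dihydroxybenzoic acids, passed in neither pair (-0.17 and 0.05). UGT80B1 (AT1G43620), a steryl glucoside synthase, passed in neither pair either (log2 0.12 and 0.10).

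Exceptions among the UGTs were UGT71C3, UGT71C1 and UGT88A1. UGT71C3 (AT1G07260), which glucosylates methyl salicylate, was higher in soil. In ATGE_9 its signals were 92.7, 105 and 93.01, against 59.5, 60.5 and 52.3 in ATGE_98. In ATGE_3 they were 127, 141 and 125, against 58.6, 49.99 and 61.03 in ATGE_94. The difference was 1.68-fold in the later pair and 2.32-fold in the earlier one, without overlap (adjusted p = 2.22e-06 and 1.42e-09, limma). UGT71C1, active on hydroxycinnamates and lignans, was higher in ATGE_9 than in ATGE_98 (log2 0.77 ± 0.14) and did not pass in ATGE_3 against ATGE_94 (log2 0.23 ± 0.14). UGT88A1 (AT3G16520), active on quercetin in vitro, was lower in ATGE_9 than in ATGE_98 (log2 -1.46 ± 0.12, adjusted p = 1.08e-10, limma), while ATGE_3 and ATGE_94 differed by log2 0.06 ± 0.12.

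**Figure D2:**
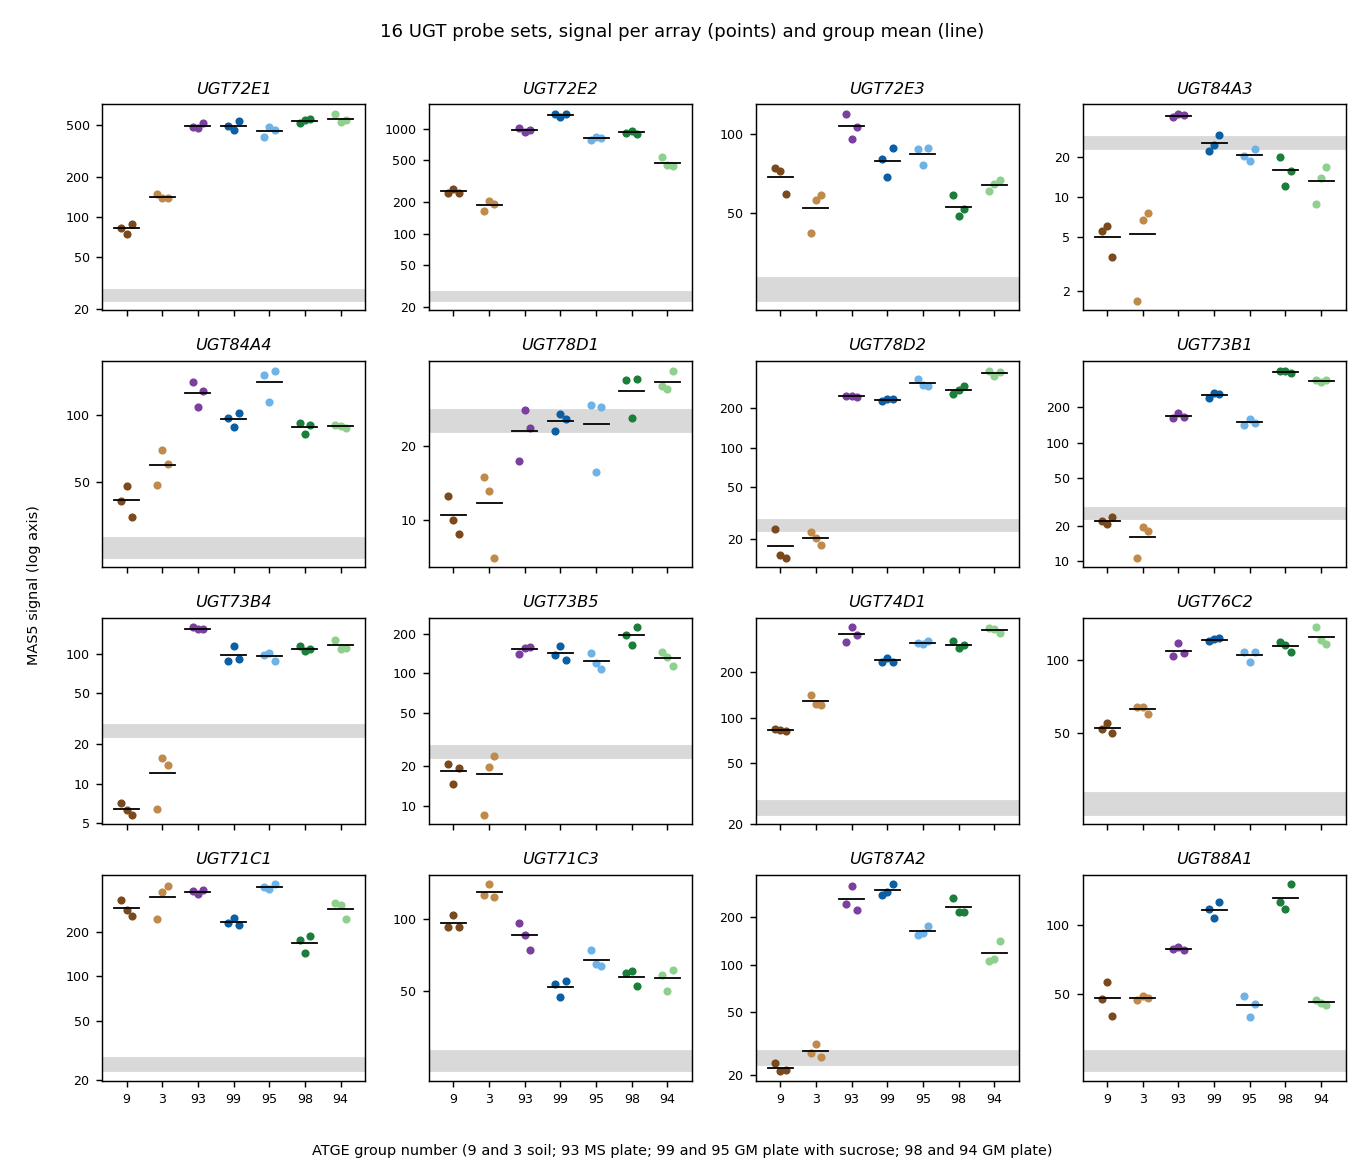
MAS5 signal on a log axis for 16 UGT probe sets in the 7 groups, from ATGE_9 on the left to ATGE_94 on the right. Points are arrays, lines group means and the grey band the range of the arrays' floors, 22.9 to 28.0. UGT78D2, UGT73B1 and UGT73B4 sit at or under the band in both soil groups and well above it on plates, and UGT71C3 has its highest group means in soil.

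The tested P450s that were lower in soil were all CYP71B genes, which made up 7 of the 10 tested. CYP51G2 and CYP78A9 entered through a soil group, which leaves only CYP84A4 to set beside them. CYP71B23 (AT3G26210) was close to the floor in soil. In ATGE_9 its signals were 34.8, 25.9 and 27.7, against 277, 284 and 312 in ATGE_98. In ATGE_3 they were 34.1, 28.8 and 32.3, against 162, 157 and 128 in ATGE_94. Soil was lower without overlap, by 9.95-fold in the later pair (log2 -3.31 ± 0.11, adjusted p = 8.74e-18, limma) and 4.69-fold in the earlier one (log2 -2.23 ± 0.11, adjusted p = 1.79e-14, limma). CYP71B26 was dim in both soil groups and lower by at least 4.42-fold and at least 3.56-fold. CYP71B6, bright in every group, gave 116, 126 and 141 in ATGE_9, against 546, 563 and 614 in ATGE_98, and 136, 143 and 145 in ATGE_3, against 342, 339.8 and 368 in ATGE_94. Those values correspond to 4.52-fold and 2.48-fold lower signal in soil.

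CYP71B34 was lower in soil at both harvests. Its signals were 35.5, 33.7 and 31.8 in ATGE_9, against 68.2, 63.7 and 50.7 in ATGE_98, and 15.9, 17.4 and 19.7 in ATGE_3, against 65.6, 66.9 and 65.02 in ATGE_94. Both pairs were free of overlap, at 1.80-fold lower in the later one and at least 2.51-fold lower in the earlier one, where ATGE_3 was dim. CYP78A9 (AT3G61880), known for promoting seed and fruit growth, was above the floor on all arrays of ATGE_9 alone (36.3, 31.7 and 34.7), against 15.8, 7.90 and 11.4 in ATGE_98, at least 1.31-fold higher. It was tested because of this group, so its difference there follows from how it entered. In ATGE_3 against ATGE_94 both groups of CYP78A9 were dim, so the call carries no fold, and it was lost without ATGE_94 replicate 1 or 2 (adjusted p = 0.0579 and 0.0668, limma). CYP51G2 (AT2G17330), a relative of the sterol 14-demethylase, was likewise above the floor only in ATGE_3 (27.8, 35.7 and 33.2), against 18.4, 16.3 and 18.8 in ATGE_94.

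**Figure D3:**
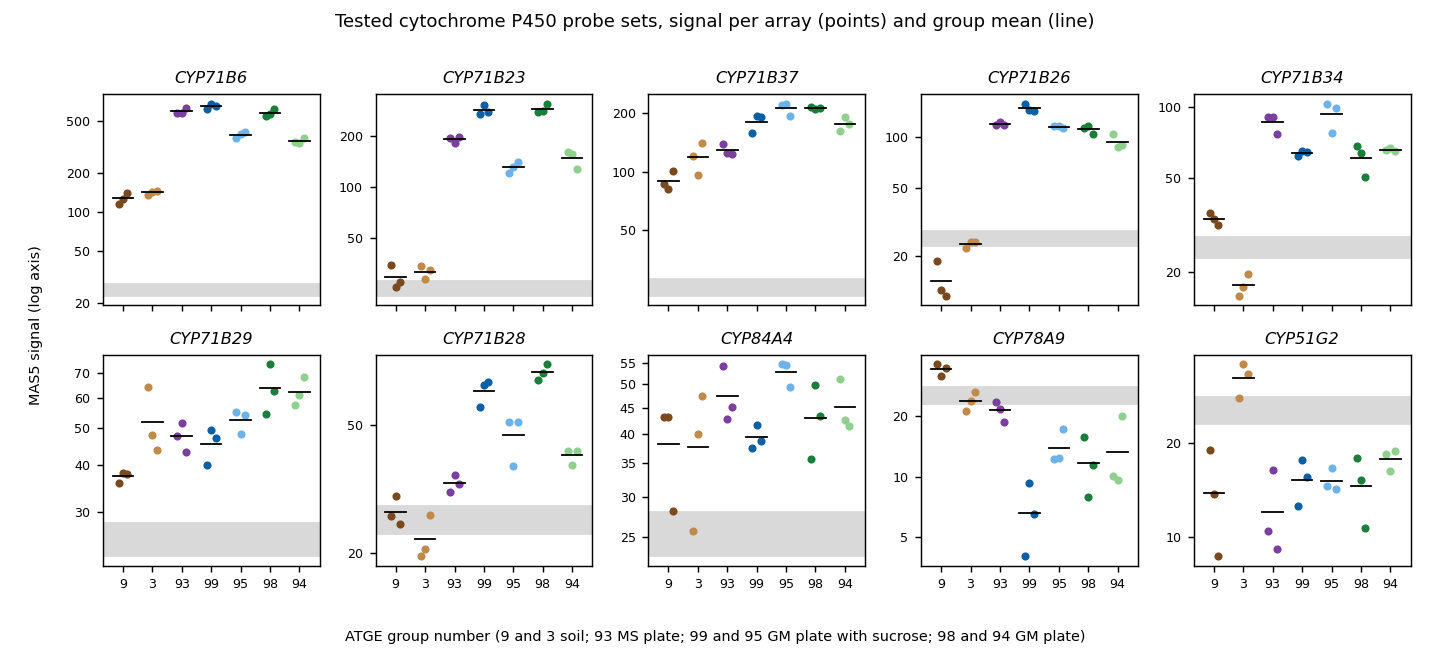
MAS5 signal on a log axis for the 10 tested P450 probe sets in the 7 groups, from ATGE_9 on the left to ATGE_94 on the right. Points are arrays, lines group means and the grey band the range of floors, 22.9 to 28.0. CYP71B6, CYP71B23 and CYP71B26 are lowest in both soil groups, and CYP78A9 is highest in ATGE_9.

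The soil difference was not the same in the later and the earlier pair for a part of the members, in a comparison added after the data were seen. Soil and plate plants of a pair may differ in stage, so this cannot be read as a change with harvest alone. The later difference minus the earlier one passed upward for 1 P450 and downward for 5, against 13.4% and 17.1% of all tested probe sets, and for 4 UGTs upward and 7 downward (5 and 4 after median centring). Leaving out 1 array gave 7 to 12 called UGTs. UGT88A1 stood at -1.52 ± 0.16 on the log2 scale, UGT87A2 (AT2G30140), known for a role in flowering time, at -1.34 ± 0.18 and CYP71B23 at -1.08 ± 0.15 (adjusted p = 1.5e-07, 3.6e-06 and 7.23e-06, limma). In the other direction were UGT71C2 (AT2G29740) at 1.13 ± 0.32 and CYP71B34 at 1.06 ± 0.18. The values of UGT87A2 (dim in ATGE_9), CYP71B34 and CYP71B28 (dim in ATGE_3), and CYP71B26 and UGT71B1 (dim in both soil groups) rest on signals under the floor. UGT71B1 also passed upward (0.89 ± 0.30), and lost its call without ATGE_3 replicate 3 (adjusted p = 0.0958), ATGE_9 replicate 1 (0.086), ATGE_9 replicate 3 (0.0531), ATGE_94 replicate 3 (0.06) or ATGE_98 replicate 3 (0.0631), all by limma.

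With sucrose in the GM medium, UGTs passed in each direction at shares near those of all tested probe sets. In ATGE_95 against ATGE_94, 6 of 28 UGTs were higher and 5 lower, with 15.2% and 19.2% of all tested probe sets called. In ATGE_99 against ATGE_98, 5 were higher and 3 lower (3 and 3 after median centring), with 12.7% and 11.9% of all. UGT72E2, UGT72E3, UGT71C1 and UGT87A2 were higher at both harvests, and UGT73B1 and UGT74D1 were lower at both. How many of all tested probe sets passed in the same direction at both harvests was not counted. UGT72E3 lost its earlier call without ATGE_94 replicate 1 or ATGE_95 replicate 1 or 3 (adjusted p = 0.0739, 0.0655 and 0.0728, limma), and UGT87A2 its later one without ATGE_98 replicate 2 or 3 or any array of ATGE_99 (0.051 to 0.165). UGT72E2 gave 1376, 1282 and 1386 in ATGE_99, against 912, 957 and 898 in ATGE_98, and 785, 842 and 807 in ATGE_95, against 533, 452 and 441 in ATGE_94. The sucrose arrays were above the others in both pairs, at log2 0.55 ± 0.08 and 0.78 ± 0.08 (adjusted p = 7.47e-06 and 3.27e-08, limma). UGT73B1 went the other way, with 238, 263 and 254 in ATGE_99, against 397, 404 and 388 in ATGE_98, and 141, 157 and 145 in ATGE_95, against 339, 321 and 338 in ATGE_94. These are falls of 1.58-fold and 2.25-fold without overlap.

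Single-harvest calls included UGT84A4, higher in ATGE_95 than in ATGE_94 (log2 0.66 ± 0.14), and UGT76E2 (AT5G59590), which was above the floor on the arrays of ATGE_94 alone (16.1, 11.7 and 21.8 in ATGE_95, against 67.00, 48.4 and 40.4 in ATGE_94). UGT76E2 was tested because of that group. In ATGE_99 against ATGE_98, UGT71C1 lost its call without ATGE_98 replicate 2 or ATGE_99 replicate 2 (adjusted p = 0.0915 and 0.0552, limma), and UGT71B1 and UGT71C5 lost theirs without any 1 array of either group. Leaving out 1 array gave between 4 and 9 called UGTs in this pair.

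The P450 count in the sucrose comparisons depended on the scaling. Of all tested probe sets, 15.2% were higher and 19.2% lower in ATGE_95 against ATGE_94, and 12.7% and 11.9% in ATGE_99 against ATGE_98. In ATGE_95 against ATGE_94, 1 of 10 was higher and 0 lower (3 higher after quantile normalization, 4 after median centring), CYP71B34 at log2 0.49 ± 0.13 (adjusted p = 0.00405, limma), with 4 higher and 0 lower at an unadjusted p below 0.05. Its signals were 103, 77.3 and 99.2 in ATGE_95, against 65.6, 66.9 and 65.02 in ATGE_94, without overlap. In ATGE_99 against ATGE_98, CYP71B26 was higher (log2 0.42 ± 0.12) and CYP71B29 (AT1G13100) lower (log2 -0.48 ± 0.14), or 1 higher and 2 lower under both other scalings. CYP71B26 lost its call without ATGE_98 replicate 3 or ATGE_99 replicate 1 (adjusted p = 0.0618 and 0.0693, limma), and CYP71B29 without ATGE_98 replicate 2 or ATGE_99 replicate 1 (0.0858 and 0.0785).

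The sucrose effect itself was compared between harvests. The later effect minus the earlier one passed for 0 of 28 UGTs by limma (2 lower after quantile normalization, 4 lower after median centring), with 2 higher and 3 lower at an unadjusted p below 0.05, where 7.07% of all tested probe sets passed upward and 5.44% downward. Of the P450s 0 were higher and 1 lower, CYP71B37 at log2 -0.51 ± 0.16 (adjusted p = 0.041, limma). It was 159, 193 and 192 in ATGE_99, against 215, 209 and 213 in ATGE_98, and 221, 224 and 193 in ATGE_95, against 163, 190.4 and 177 in ATGE_94. Its call was lost without ATGE_94 replicate 1, ATGE_95 replicate 1 or 2, any array of ATGE_98, or ATGE_99 replicate 1, at adjusted p between 0.0651 and 0.12 (limma).

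Between harvests on plates, UGT calls in ATGE_98 against ATGE_94 were near the share of all tested probe sets. In ATGE_98 against ATGE_94, 5 of 28 UGTs were higher and 6 lower (5 and 11 after median centring), with 21.3% and 20.4% of all tested probe sets called, and in ATGE_99 against ATGE_95, 5 were higher and 10 lower, with 27.9% and 20% of all. UGT88A1, UGT72E2 and UGT87A2 were higher in both. The shares of all tested probe sets higher or lower in both plate pairs were not counted. UGT88A1 gave 117, 107 and 125 in ATGE_99, against 48.8, 39.6 and 45.3 in ATGE_95, and 126, 117 and 150.5 in ATGE_98, against 47.1, 45.7 and 44.8 in ATGE_94. The later arrays were far above the earlier ones, by 2.61-fold and 2.85-fold (adjusted p = 1.61e-09 and 5.54e-10, limma). In soil the same probe set differed by log2 -0.01 ± 0.12 between ATGE_9 and ATGE_3. UGT71C1, UGT71C2, UGT74D1, UGT76B1, UGT76E2 and UGT78D2 were lower in both plate pairs, UGT71C1 by 1.72-fold in the sucrose pair and 1.69-fold without it. UGT76E2 was dim in both groups of the sucrose pair and lost its call there without ATGE_95 replicate 3 (0.0561), and UGT76B1 without ATGE_99 replicate 3 (0.0706), both by limma.

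Of the P450s, 3 CYP71B genes were higher at the later harvest in both plate pairs. In ATGE_98 against ATGE_94, 3 of 10 were higher and 0 lower, and in ATGE_99 against ATGE_95, 4 were higher and 2 lower (3 and 4 after quantile normalization, 2 and 5 after median centring). Of all tested probe sets, 21.3% were higher and 20.4% lower in ATGE_98 against ATGE_94, and 27.9% and 20% in ATGE_99 against ATGE_95. The share of all tested probe sets higher in both pairs was not counted. The 3 P450s higher in both are CYP71B23, CYP71B28 and CYP71B6. CYP71B23 gave 273, 305 and 277 in ATGE_99, against 121, 133 and 141 in ATGE_95, and 277, 284 and 312 in ATGE_98, against 162, 157 and 128 in ATGE_94. The groups did not overlap, at log2 1.11 ± 0.11 and 0.97 ± 0.11 (adjusted p = 1.68e-08 and 1.75e-07, limma). CYP71B6 was higher by 1.65-fold and 1.64-fold. In the sucrose pair CYP71B28 lost its call without ATGE_95 replicate 2 (adjusted p = 0.0726, limma) and under both other scalings (0.0642 and 0.103), and CYP71B26, higher, at log2 0.36, without ATGE_95 replicate 3 or ATGE_99 replicate 1 (0.0528 and 0.0739) and after median centring (0.246).

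In soil the later harvest was lower for more members than higher. In ATGE_9 against ATGE_3, 3 UGTs were higher and 10 lower (4 and 7 after median centring), with 11.4% and 15.3% of all tested probe sets called, and 1 P450 was higher and 4 lower. Both soil groups were dim for 4 of these UGTs (UGT72B3, UGT73B1, UGT73B4 and UGT76E2) and for CYP71B26. CYP51G2, among the lower P450s, was tested because of ATGE_3, the only group in which it is above the floor. Its call here therefore follows from how it entered. UGT72E1 gave 82.01, 74.2 and 89.2 in ATGE_9, against 149, 140.0 and 139.7 in ATGE_3, without overlap (log2 -0.81 ± 0.08, adjusted p = 4.85e-08, limma). UGT76B1 and UGT74D1 were lower, at log2 -0.69 and -0.62. UGT72E2 was higher (log2 0.43 ± 0.08), as was UGT72E3 (log2 0.40 ± 0.13), whose call was lost without ATGE_3 replicate 1 or ATGE_9 replicate 1 or 2 (adjusted p = 0.189, 0.112 and 0.0938, limma). UGT84A4 lost its call without ATGE_3 replicate 2 (0.0532), and CYP71B29 without ATGE_3 replicate 1 or ATGE_9 replicate 1 (0.136 and 0.0545). CYP71B37 was lower at log2 -0.41, a call lost without ATGE_3 replicate 3 or ATGE_9 replicate 2 (0.089 and 0.0591). CYP71B34 was the P450 that was higher, at least 1.28-fold, with ATGE_3 dim.

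ATGE_93 and ATGE_99 differ in medium, sucrose, day length, temperature and the set of plants at once, which cannot be told apart. ATGE_93 was placed in neither harvest, so the stage of the plants may differ too. Of the UGTs 8 were higher and 5 lower in ATGE_93 (13 and 3 after median centring), with 22.6% and 33.7% of all tested probe sets called, and of the P450s 2 were higher and 4 lower (3 and 2 after median centring). UGT71C3 gave 96.2, 85.96 and 74.6 in ATGE_93, against 53.6, 47.3 and 54.7 in ATGE_99, and UGT73B4 gave 160.1, 154 and 155 in ATGE_93, against 87.3, 115 and 91.7 in ATGE_99. Both were higher in ATGE_93 without overlap (log2 0.72 ± 0.11 and 0.68 ± 0.21). UGT73B1 and UGT88A1 were lower, at log2 -0.58 and -0.56. CYP71B28 was the P450 with the largest fall, 31.00, 34.9 and 32.8 in ATGE_93, against 57.1, 66.6 and 68.2 in ATGE_99 (log2 -0.96 ± 0.14, adjusted p = 5.03e-06, limma). CYP71B26 was lower, at log2 -0.31, a call lost without any 1 array of either group (adjusted p between 0.0506 and 0.118, limma), after quantile normalization (-0.21, adjusted p = 0.108) and after median centring (-0.10, adjusted p = 0.51). UGT76C1 lost its call without ATGE_99 replicate 3 (adjusted p = 0.0629, limma), after quantile normalization (-0.37, 0.0819) and after median centring (-0.36, 0.0909).

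**Figure D4:**
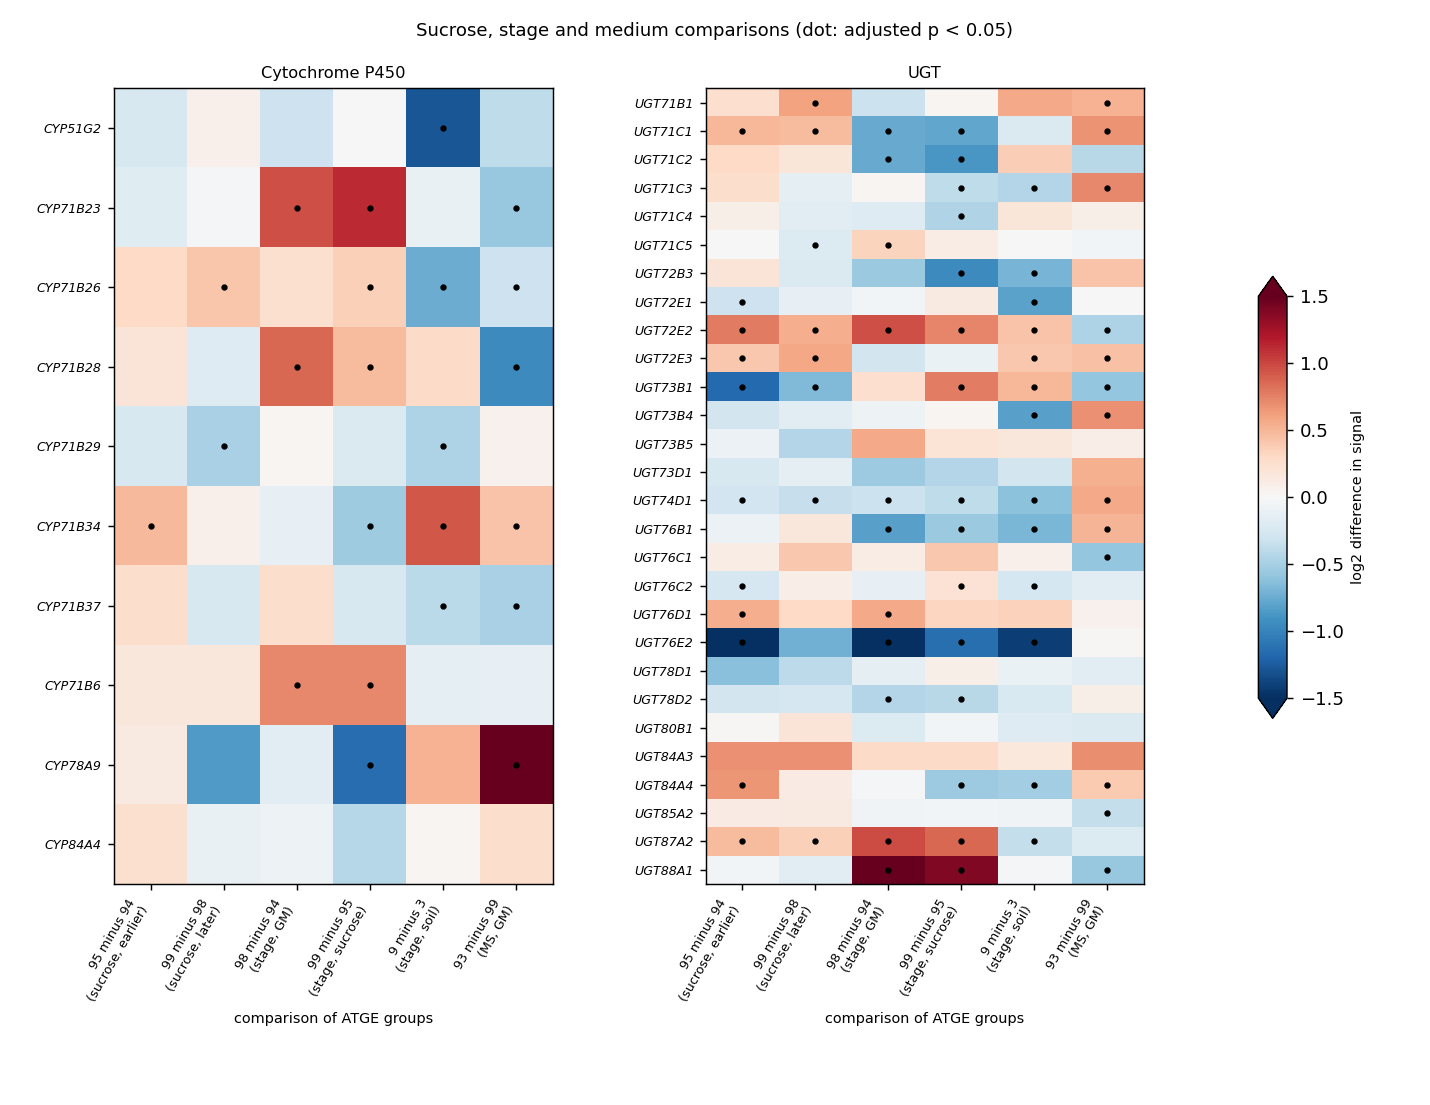
Log2 differences in signal of the tested P450s (left) and UGTs (right) in the sucrose, harvest and medium comparisons, as colour from -1.5 to 1.5, with a dot where the adjusted p was below 0.05. UGT88A1 is deep red in both plate harvest comparisons, at 1.51 and 1.39, and near 0 in soil.

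Many members lie next to each other in the genome, and neighbours differed in whether they were measured and, in places, in direction. There were 20 pairs of members with no gene between them, both tested in 8, 1 tested in 7 and none tested in 5. In the CYP71B runs, CYP71B23, CYP71B26, CYP71B34 and CYP71B37 were tested, while CYP71B21, CYP71B22, CYP71B35 and CYP71B36 exceeded the floor on no array. Opposite calls in 1 comparison were seen in 2 pairs. UGT71C4 (AT1G07250) and UGT71C3 were called in opposite directions in both soil comparisons: UGT71C4 at log2 -0.97 and -1.35, and UGT71C3 at 0.75 and 1.21, later pair first. CYP71B26 and CYP71B34 were called in opposite directions in ATGE_99 against ATGE_95 (log2 0.36 and -0.53), ATGE_9 against ATGE_3 (-0.75 and 0.94) and ATGE_93 against ATGE_99 (-0.31 and 0.42), where the calls of CYP71B26 in the first and last of these were lost after median centring (0.17 and -0.10). CYP71B26 is dim in both soil groups, so its soil value carries no fold. Cross-hybridisation between probe sets of such close relatives was not tested.

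**Figure D5:**
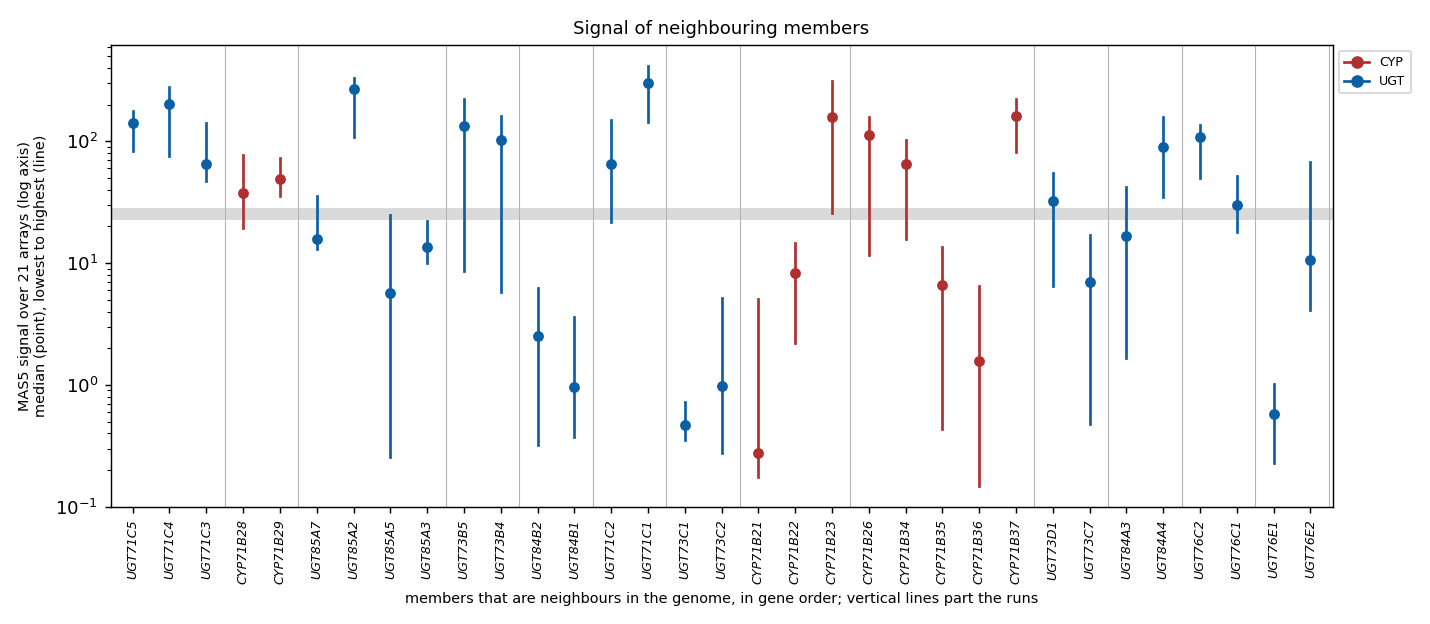
Median signal over 21 arrays (points) and lowest to highest signal (lines), on a log axis, for members that are neighbours in the genome, in gene order, with P450s in red and UGTs in blue. The grey band is the range of floors, 22.9 to 28.0. Runs hold members above and below the band side by side, and the height of a point sets no order of expression.

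Few genes of the pathways around these enzymes had a named probe set. None of the 10 P450 redox partners did, and of the 28 genes of UDP-sugar supply only USP did, at log2 0.26 in ATGE_9 against ATGE_98 and -0.27 in ATGE_3 against ATGE_94. Of 16 flavonoid genes 3 were named and 1 tested. This was CHIL, the chalcone isomerase-like protein that assists flavonoid synthesis, at 2.56 to 10.6 in ATGE_9, against 461 to 485 in ATGE_98, and 6.06 to 12.6 in ATGE_3, against 447 to 556 in ATGE_94. Of 24 phenylpropanoid and lignin genes 3 were tested. HCT, which makes the hydroxycinnamoyl shikimate esters on the way to monolignols, passed in neither soil pair (log2 -0.10 and -0.08), and the lignin peroxidase gene AT5G66390 was lower in both (-0.65 and -1.02). The cinnamoyl-CoA reductase gene CCR2 was lower in ATGE_9 than in ATGE_98 (-0.81) and higher in ATGE_3 than in ATGE_94 (1.01). Of 30 glucosinolate and camalexin genes 2 were tested, BCAT4 of methionine chain elongation (1.97 and 3.24) and GSTU20 (0.61 and 1.33), both higher in both soil pairs. FACT, which links fatty alcohols to caffeate in suberin-associated waxes, was lower in both (-2.13 and -1.07). Of 19 gibberellin genes 3 were tested, all receptors: GID1B (-0.82 and -1.02) and GID1C (-0.47 and -0.58) were lower in both, and GID1A was higher in the later pair (0.34) and did not pass in the earlier one (0.11). In each bracket with a pair of values the later pair, ATGE_9 against ATGE_98, stands first, as log2 differences from limma. The cytokinin response regulator gene ARR15 was at least 1.16-fold higher in ATGE_9 than in ATGE_98, which was dim, and did not pass in ATGE_3 against ATGE_94, both dim.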

How the data were processed

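Roots of 7 groups were measured on 21 ATH1 arrays, and groups were taken from the sample titles. The deposited values are signal intensities on a linear scale that the authors made with MAS5, per the submitters' processing notes, and in the files the mean after trimming 2% at each end is 100.0 on every array, so this scaling was kept. No version or setting of that step is recorded in the sources used here. The table held 22810 probe sets, of which 64 controls were left out. Of the rest, 13513 carry 1 gene name, 503 several and 8730 none in the platform annotation used, and gene names and gene order were taken from RefSeq.

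Log2 signals, with no pseudocount, were fitted in limma 3.58.1 (R 4.3.3) with 1 mean per group over all 21 arrays, an intensity trend and 14 residual degrees of freedom, for the 15284 probe sets above their array's 40th percentile on at least 3 arrays. P-values were adjusted by Benjamini-Hochberg over all tested probe sets per comparison, with a threshold of 0.05. Tables were handled with Python 3.11.15 and pandas 2.3.3. On simulated data for ATGE_95 against ATGE_94, with 15284 probe sets, 57 of 100 changes of log2 0.5 and 91 of 100 changes of log2 1.0 were recovered, with 1 false call. No other probe set was changed there, while 15.2% were called higher and 19.2% lower in the real comparison. The adjusted p depends on that share, so these figures do not give the recovery or the false calls in the real data.

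Named genes are those with the highest medians, the largest non-overlapping changes per comparison, the role and partner lists and neighbours of opposite direction; others named here (such as single calls lost on leaving out an array) were chosen after their values were seen. The members and lists were chosen with earlier results of these data known. One symbol of the flavonoid list, CHI, matched a chitinase gene and was removed by identity. Alternatives were quantile normalization, median centring, other filters, a pseudocount of 6.99, no intensity trend, only the groups compared, a replicate block and leaving out each array.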

Additional observations from a re-analysis of the deposited data

Results flagged for a closer look

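The soil difference at the later harvest minus that at the earlier harvest passed by limma for 17 members, in a comparison chosen after seeing the data. It was negative, so that the soil minus plate difference was more negative or less positive at the later harvest, for CYP71B23 (-1.08 on the log2 scale), CYP71B26 (-0.99), CYP71B6 (-0.87), CYP71B37 (-0.67) and CYP71B28 (-0.57). Among the UGTs it was negative for UGT88A1 (-1.52), UGT87A2 (-1.34), UGT72E1 (-0.76), UGT72E2 (-0.53), UGT71C3 (-0.46), UGT71C5 (-0.34) and UGT74D1 (-0.29). It was positive for UGT71C2 (1.13), CYP71B34 (1.06), UGT71B1 (0.89), UGT72E3 (0.68) and UGT71C1 (0.54). Of all tested probe sets, 13.4% passed upward and 17.1% downward in this comparison. CYP71B26 and UGT71B1 were dim in both soil groups, CYP71B34 and CYP71B28 in ATGE_3 and UGT87A2 in ATGE_9, so their values rest on signals under the floor. The calls of CYP71B28, UGT71B1, UGT71C1, UGT71C3, UGT71C5 and UGT74D1 were lost under at least 1 array left out and under other settings.

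The sucrose effect differed between harvests for CYP71B37 (-0.51), the 1 member called there, where 7.07% of all tested probe sets passed upward and 5.44% downward. Its call was lost without the filter (adjusted p = 0.0592, limma) and without the intensity trend (0.0685). Leaving out certain single arrays of the 4 groups compared also lost it (0.0651 to 0.12).

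For 4 members the change between harvests was in opposite directions in soil and on sucrose plates, with both calls made by limma and no test of their difference. CYP71B26 gave -0.75 in ATGE_9 against ATGE_3 and 0.36 in ATGE_99 against ATGE_95, and CYP71B34 gave 0.94 and -0.53. UGT76C2 gave -0.26 and 0.22, and UGT87A2 gave -0.36 and 0.86. CYP71B26 was dim in both soil groups, CYP71B34 in ATGE_3 and UGT87A2 in ATGE_9, so their soil values rest on signals under the floor. How often all tested probe sets showed such opposite calls was not counted. In soil the call of UGT76C2 was lost without ATGE_3 replicate 1 or 2 or ATGE_9 replicate 1 or 3 (adjusted p = 0.0642, 0.0628, 0.057 and 0.0766, limma), and that of UGT87A2 without ATGE_3 replicate 1 or 2 or ATGE_9 replicate 2 or 3 (0.0629, 0.151, 0.112 and 0.0894). On sucrose plates the call of UGT76C2 was lost after quantile normalization (0.12, adjusted p = 0.211) and median centring (0.02, adjusted p = 0.848) and without ATGE_95 replicate 2 or any array of ATGE_99 (adjusted p between 0.0621 and 0.129, limma). In soil it was lost after median centring (adjusted p = 0.052), and that of UGT87A2 after quantile normalization (0.0904) and median centring (0.0772). The plate call of CYP71B26 was lost after median centring (0.17, adjusted p = 0.246) and without ATGE_95 replicate 3 or ATGE_99 replicate 1 (0.0528 and 0.0739).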

How the results depend on the processing

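The counts of called members in ATGE_3 against ATGE_94 and in ATGE_9 against ATGE_98 stayed within 1.5 times under every setting tried. No called member of any comparison turned its direction. Of 176 calls of a member in a comparison, 40 were lost under at least 1 setting, 36 of them on leaving out 1 array. Small counts moved most. In ATGE_95 against ATGE_94, 1 P450 was called, against 3 after quantile normalization, 4 after median centring, 2 with a pseudocount and 2 with the replicate block. The 60th percentile filter, which tests fewer probe sets, left 1 of 2 P450 calls in ATGE_99 against ATGE_98 and 3 of 5 in ATGE_9 against ATGE_3, and a fit of these 2 groups alone, with fewer arrays, left 7 of 13 UGT calls in the soil pair. For the difference of sucrose effects the P450 count of 1 became 2 after median centring and 0 without the intensity trend. The UGT count of 0 there became 2 after quantile normalization, 4 after median centring, 1 with the 60th percentile filter, 2 with a pseudocount, 1 without the trend and 2 in a fit of the 4 groups alone. Where not named, the cause was not tested.

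Leaving out 1 array gave 1 to 2 P450s in ATGE_95 against ATGE_94, where the count became 2 without ATGE_3 replicate 2 or 3, ATGE_9 replicate 1 or 3, ATGE_94 replicate 1 or ATGE_95 replicate 3. It gave 0 to 3 P450s in ATGE_99 against ATGE_98, with 0 without ATGE_99 replicate 1 and 1 without ATGE_98 replicate 3. UGTs in that pair ranged from 4 (without ATGE_99 replicate 2) to 9, with 5 without ATGE_98 replicate 2 or 3 or ATGE_99 replicate 1 or 3. The difference of sucrose effects held 0 to 2 P450s and 0 to 1 UGTs, with 2 P450s without ATGE_94 replicate 3, and 1 UGT without ATGE_3 replicate 1, ATGE_94 replicate 3 or ATGE_95 replicate 2. The later minus earlier soil difference held 7 to 12 UGTs, with 7 without ATGE_9 replicate 1 or 3.

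Median centring moved the median of all tested probe sets by -0.20 on the log2 scale in ATGE_99 against ATGE_95, 0.22 in ATGE_93 against ATGE_99, -0.11 in the difference of sucrose effects and 0.14 in the later minus earlier soil difference, and quantile normalization moved that of ATGE_93 against ATGE_99 by 0.12. Replicate letters shared between groups were checked for pairing: deviations of same-letter arrays correlated at -0.08 to 0.07 over 63 pairs, with 0 over 0.1, and 8 of 21 arrays correlated best with their own letter. No shared deviation by letter was seen, which cannot exclude that same-letter arrays shared a culture or batch. With the replicate block UGT counts became 23 in place of 24 in ATGE_3 against ATGE_94 and 7 in place of 8 in ATGE_99 against ATGE_98. In the later minus earlier soil difference they became 10 in place of 11. P450 counts became 2 in place of 1 in ATGE_95 against ATGE_94 and 3 in place of 2 in ATGE_99 against ATGE_98, and no other count changed. Dim groups, 3 arrays per group and the few named probe sets limit what these data can show.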
